A study of Oryza sativa with 8 samples.

Results

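NAC proteins are plant transcription factors that share an N-terminal DNA-binding domain. The members described here were the rows of the deposited rice table whose annotation text holds No apical meristem, in any case, or NAC as a capitalised word or at the start of a word. This matched 79 transcript models of 72 loci, out of 43481 models of 36819 loci. Each locus was represented by its matching model with the highest mean, and 59 of the 72 loci reached 1 on the deposited scale in 2 or more of the 8 libraries. The other 13 loci did not, with at most 26 reads each over all libraries and, for 2 of them, no read in any. The rule reads annotation text, so genes annotated with NAC inside a longer name or with NAM alone are not members, as with OsNAC3 (OsNAC3 protein), SNAC1 (similar to OsNAC6 protein) and OMTN3 (similar to NAM / CUC2-like protein). They are described below as part of lists of known rice NAC genes and are marked as such.

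The family takes its name from NAM of petunia and from ATAF and CUC of Arabidopsis. In plants its members mark organ boundaries at the shoot apex, switch on secondary wall formation, drive leaf senescence, and respond to drought, salt, cold and pathogens. In rice, SNAC1, OsNAC5, OsNAC6 and OsNAC10 are known for stress tolerance when overexpressed, OsNAP for promoting senescence, and the OMTN genes as targets of the microRNA miR164. Rice gene names used here come from general knowledge of these locus identifiers, since the deposited annotation gives most of them by domain alone.

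All libraries were made from rice tissue labelled shoot apical meristem, the dividing tip that forms leaves and later the panicle. By label, 2 libraries came from the cultivar Nipponbare. A further 3 came from GW6a-4.6, a chromosome segment substitution line (CSSL) in which a Kasalath fragment replaces part of the Nipponbare genome. The remaining 3 came from OsglHAT1-OE, transgenic plants in the Nipponbare background. GW6a and OsglHAT1 name the same histone acetyltransferase gene, and both lines ask what it does to transcripts of the apex. The transgene's promoter, the number of transformation events, plant age, treatment, sampling time and whether replicates were separate plants are not given in the sources used here, so p-values measure the spread between these libraries.

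Library totals, inferred from the step between deposited values, were 5207710 to 7667853 reads. NAC loci that passed the filter had 24 to 35183 reads over all libraries (median 487, with 8 loci under 100). Reads given for a locus are alignments recovered from the values, so a read can count at more than 1 locus. Replicate 3 of OsglHAT1-OE had 2.41 alignments per read against 2.66 to 2.69 elsewhere, and a median-ratio scaling factor of 0.864 against 1.01 to 1.07. The GW6a transcript itself, Os06t0650300-00, was at 1.46 and 2.30 in Nipponbare, at 2642, 2573 and 2913 in the libraries labelled GW6a-4.6, and at 13.2, 8.87 and 10.02 in those labelled OsglHAT1-OE. The overexpression label therefore goes with far less of this transcript than the substitution label, so groups are called by their labels and changes are not related to how much of the gene a library held. The meristem homeobox genes OSH1, OSH15, OSH6 and OSH43 were detected in every library, with a summed value of 118.7 to 129.3 in Nipponbare, 304.1 to 325.9 in GW6a-4.6 and 204.2 to 251.2 in OsglHAT1-OE. Leaf genes of photosynthesis were also abundant: 7 RuBisCO small subunit and chlorophyll-binding transcripts summed to 2593 to 2843, 2080 to 2573 and 2593 to 3155 in the same order. The tissue thus carried both meristem and leaf transcripts.

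By summed value, NAC transcripts were highest in Nipponbare, lower in GW6a-4.6 and lowest in OsglHAT1-OE. The deposited values of all 72 loci summed to 2881 and 2965 in Nipponbare, to 2333, 2407 and 2355 in GW6a-4.6, and to 1581, 1610 and 1355 in OsglHAT1-OE. The 3 groups did not overlap. As a share of each column's total the sums were 0.108% and 0.111%, then 0.0876%, 0.0904% and 0.0884%, then 0.0588%, 0.0598% and 0.0562%, so the order also held relative to each library's own total. One transcript, Os05t0426200-02, a NAM-domain protein named here after its values were seen, supplied 26.5% to 38.6% of the sum. Without it the sums were 1857 and 1819 in Nipponbare, 1500 to 1582 in GW6a-4.6 and 965 to 1183 in OsglHAT1-OE, in the same order. Other abundant loci also weighed on the sum. Nipponbare and GW6a-4.6 means were 330 and 136 at Os01t0261200-01, 314 and 205 at OsNAC6, and 253 and 158 at Os02t0822400-01. Counted by locus, GW6a-4.6 against Nipponbare had log2 changes above 0 at 32 of the 59 loci and below 0 at 27. The lower sum there thus does not describe most members. In OsglHAT1-OE against Nipponbare 21 were above 0 and 38 below. In bulk tissue, fewer cells that express a gene and less RNA per cell cannot be told apart.

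**Figure D1:**
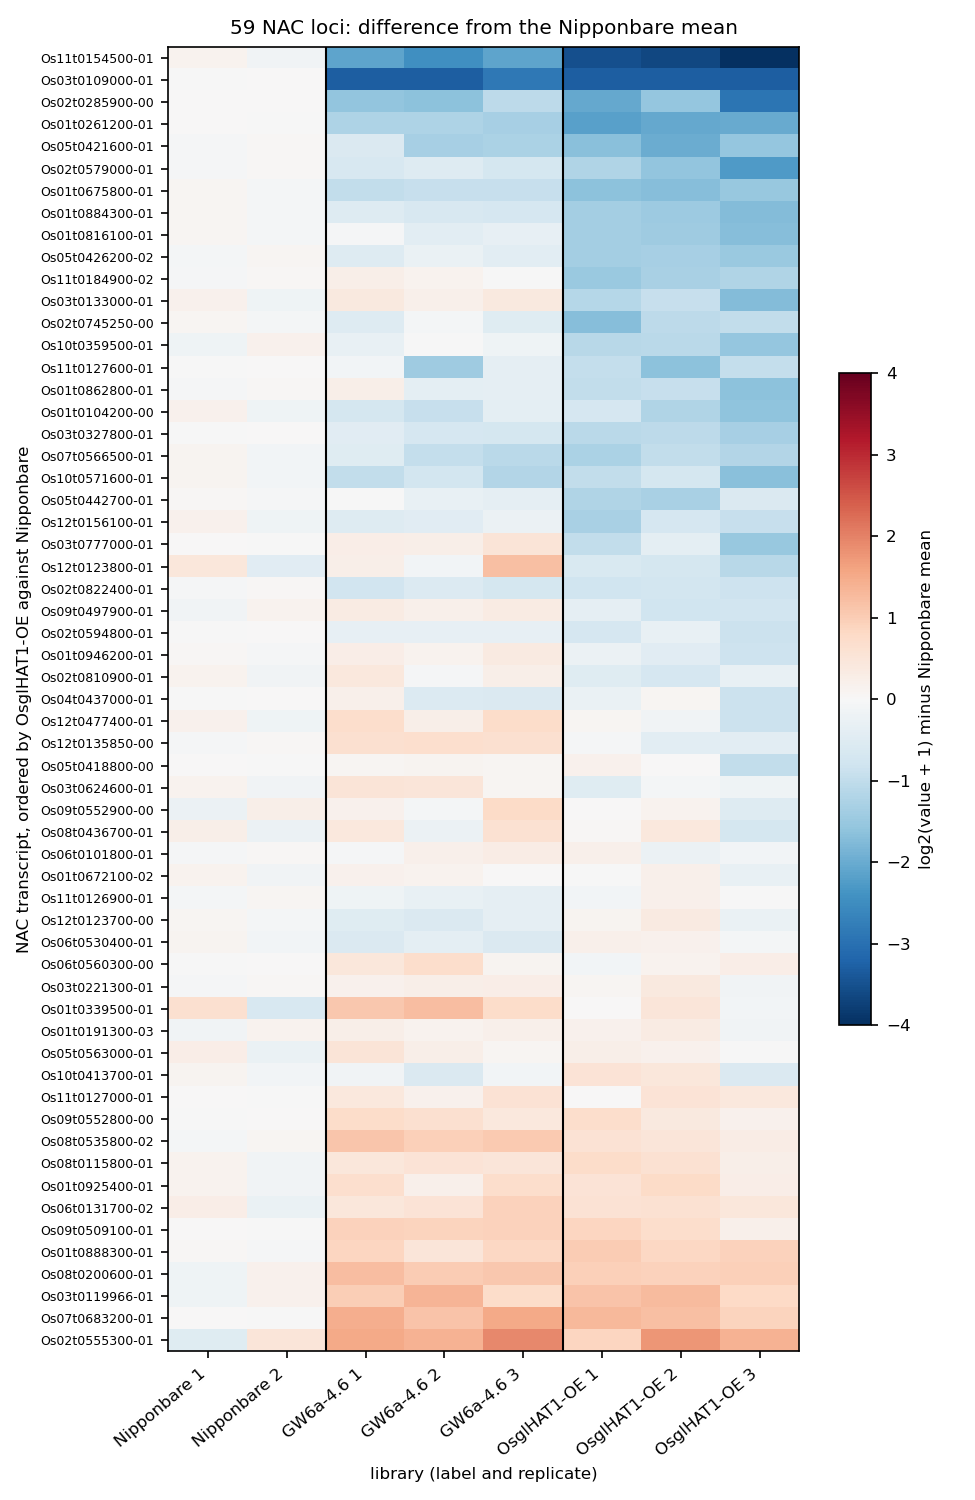
Difference of log2(value + 1) from the Nipponbare mean for the 59 NAC loci (rows, ordered by OsglHAT1-OE against Nipponbare) in the 8 libraries (columns), with blue for lower and red for higher. Blue fills most of the upper part of the OsglHAT1-OE columns, where model log2 changes reach -3.82, while red at the bottom reaches 1.34 and is shared by the GW6a-4.6 columns.

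In the libraries labelled GW6a-4.6, NAC loci moved in both directions against Nipponbare. Of the 59 loci, 12 were called higher, which is 20.3% against 26.7% of all 31487 loci tested, and 14 were called lower, 23.7% against 19.5%. A call is a limma adjusted p under 0.05, adjusted by Benjamini-Hochberg over all loci tested. Log2 changes of the called loci ran from 0.49 to 1.61 for rises and from -0.40 to -3.14 for falls. Of these, 6 rises and 5 falls had a log2 change of at least 1, which all loci tested reached in 10.5% and 6.45% of cases. Libraries of the 2 groups did not overlap at 22 NAC loci in which GW6a-4.6 was higher and at 22 in which it was lower, where 36.0% and 28.5% of all loci behaved so. Calls in either direction covered 26 loci, 44.1% against 46.3%, and the median log2 change was 0.13 for NAC loci against 0.07 for all loci. The shares of NAC loci called were thus near those of all loci in this comparison. Without Nipponbare replicate 2, 7 loci were called higher.

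In the libraries labelled OsglHAT1-OE, far more NAC loci fell than rose against Nipponbare. Called lower were 26 of the 59 loci, 44.1% against 29.7% of all loci tested, and called higher were 10, 16.9% against 22.8%. Falls with a log2 change of at least 1 numbered 21, which is 35.6% against 12.5% of all loci, and rises of that size numbered 3, 5.08% against 8.82%. Log2 changes of the called loci ran from -0.61 to -3.82 and from 0.45 to 1.34. Libraries did not overlap at 29 loci in the lower direction and at 12 in the higher one, against 37.9% and 29.0% of all loci. Calls in either direction covered 36 loci, 61.0% against 52.5%, and the median log2 change was -0.34 against -0.08. Without replicate 3 of OsglHAT1-OE the counts were still 26 lower and 10 higher, where 26.6% of all loci were called lower. Without Nipponbare replicate 2, 6 loci were called higher.

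Set directly against each other, the lines differed mostly in one direction, with OsglHAT1-OE below GW6a-4.6. Called lower in OsglHAT1-OE were 26 of 59 loci, 44.1% against 24.7% of all loci tested, and called higher were 2, 3.39% against 7.69%. No rise but 9 falls had a log2 change of at least 1, where all loci tested reached 0.778% and 7.1%. Libraries did not overlap at 28 loci in the lower direction and 3 in the higher one, against 31.4% and 11.3% of all loci, and calls in either direction covered 28 loci, 47.5% against 32.4%. The median log2 difference was -0.41 for NAC loci and -0.13 for all loci, and a scaling by median ratios moved these to -0.34 and 0.01. Under that scaling and under TMM, a trimmed-mean scaling, the counts were 21 lower and 4 higher, 35.6% and 6.78% of NAC loci. The shares of all loci called were then 18.6% lower and 18.7% higher with median ratios, and 18.4% and 19.2% with TMM. Under quantile normalization 16 were lower and 4 higher, 27.1% and 6.78%, beside 16.5% and 19.6% of all loci. The comparisons against Nipponbare share its 2 libraries, whereas the comparison of the lines does not use them.

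**Figure D2:**
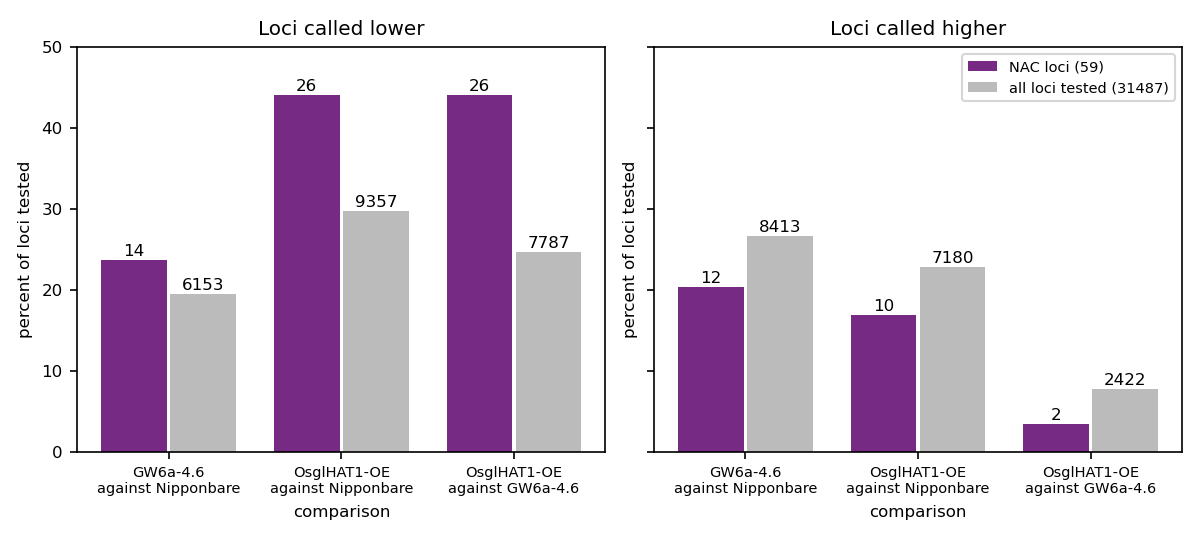
Percent of loci called lower (left) and higher (right) by limma at an adjusted p under 0.05, for the 59 NAC loci (purple) and all 31487 loci tested (grey) in each comparison, with the number of loci above each bar. The purple bars for lower calls stand at 44.1% in both comparisons that involve OsglHAT1-OE, above grey bars at 29.7% and 24.7%.

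The largest fall in OsglHAT1-OE, and the second largest in GW6a-4.6, was at a locus without an established name. Os11t0154500-01, a NAM-domain protein on chromosome 11, was at 30.3 and 24.96 in Nipponbare, at 5.53, 4.20 and 5.61 in GW6a-4.6, and at 1.47, 1.30 and 0.442 in OsglHAT1-OE. The groups did not overlap, and the means of 27.6 ± 3.8 (SD, n = 2), 5.12 ± 0.79 (n = 3) and 1.07 ± 0.55 (n = 3) give 5.40-fold and 25.8-fold lower levels than Nipponbare. The log2 changes were -2.23 (SE 0.28, limma adjusted p = 2.41e-08) and -3.82 (SE 0.28, limma adjusted p = 2.52e-14). Between the lines the fall was 4.78-fold (log2 -1.59, SE 0.25, limma adjusted p = 4.02e-06). A second model of this locus, Os11t0154500-02, showed the same order, with 12.7 and 9.98, then 2.68 to 3.44, then 0.130 to 0.587.

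Os03t0109000-01 was close to silent in both lines. It was at 8.78 and 8.83 in Nipponbare, from 60 and 46 reads, at 0, 0 and 0.362 in GW6a-4.6, from 2 reads in all, and at 0 in every OsglHAT1-OE library. The ratio of GW6a-4.6 to Nipponbare was 0.0137, with an exact 95% counting interval of 0.00166 to 0.0514. For OsglHAT1-OE, with 3 reads over the group as the floor, the level was by this rule 62.4-fold lower or more. Recovered counts at this locus were even in every library, so a read may have been counted more than once. The interval and the floor take each count as a separate read. The interval may therefore be too narrow and the bound too high. The limma adjusted p-values were 5.4e-10 and 1.28e-10. This locus passed the filter through its Nipponbare libraries alone, so its difference follows in part from being kept.

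Os01t0261200-01 belongs to a locus whose second model is annotated as similar to NAC domain-containing protein 74, known in rice as the membrane-anchored factor OsNTL3. Its values were 332 and 328 in Nipponbare, 139, 138 and 131 in GW6a-4.6, and 71.6, 78.9 and 81.5 in OsglHAT1-OE. Replicates lay close together and the 3 groups were well apart. The level fell 2.42-fold in GW6a-4.6 (log2 -1.27, SE 0.10, limma adjusted p = 8.79e-14) and 4.26-fold in OsglHAT1-OE (log2 -2.08, SE 0.10, limma adjusted p = 3.41e-20). Between the lines it fell 1.76-fold (log2 -0.81, limma adjusted p = 1.23e-09).

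Other falls of this kind were found among NAM-domain loci of lower level. Os02t0285900-00 was at 15.4 in both Nipponbare libraries, at 4.46, 4.21 and 6.88 in GW6a-4.6, and at 2.94, 4.57 and 1.18 in OsglHAT1-OE, falls of 2.96-fold and 5.31-fold (limma adjusted p = 0.000171 and 1.42e-07). Os05t0421600-01 was at 9.21 and 9.98, then 6.07, 3.25 and 3.44, then 2.35, 1.70 and 2.65, falls of 2.26-fold and 4.30-fold (limma adjusted p = 0.00285 and 4.07e-06). Os01t0675800-01 was at 17.6 and 15.4, then 7.85 to 8.22, then 4.30 to 5.16, falls of 2.04-fold and 3.52-fold (limma adjusted p = 0.00117 and 3.15e-07). At each of these 3 loci the libraries of both lines lay below both Nipponbare libraries. Between the lines, Os01t0675800-01 did not overlap and was called lower in OsglHAT1-OE (log2 -0.68, limma adjusted p = 0.0117), a call lost under quantile normalization (log2 -0.36) and in DESeq2 (log2 -0.64). The corresponding calls for Os02t0285900-00 (log2 -0.74) and Os05t0421600-01 (log2 -0.67) were lost in 11 and 12 alternatives, including edgeR, DESeq2 and every other scaling.

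Os10t0571600-01 and Os07t0566500-01 fell to similar levels in both lines. The former was at 12.9 and 11.1 in Nipponbare, at 5.53, 6.88 and 4.71 in GW6a-4.6 and at 5.58, 7.04 and 3.10 in OsglHAT1-OE, falls of 2.10-fold and 2.29-fold (limma adjusted p = 0.00374 and 0.000793). The latter was at 4.97 and 4.22, then 3.04, 1.91 and 1.63, then 1.32, 1.83 and 1.47, falls of 2.10-fold and 2.99-fold (limma adjusted p = 0.0253 and 0.00202). Neither locus was called different between the lines (limma adjusted p = 0.694 and 0.423), and their libraries overlapped there. In GW6a-4.6 the fall of Os10t0571600-01 lost its call without Nipponbare replicate 1 (log2 -0.87). That of Os07t0566500-01 did so without either Nipponbare replicate, without replicate 2 or 3 of GW6a-4.6, and in DESeq2 (log2 -0.70 to -1.15).

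**Figure D3:**
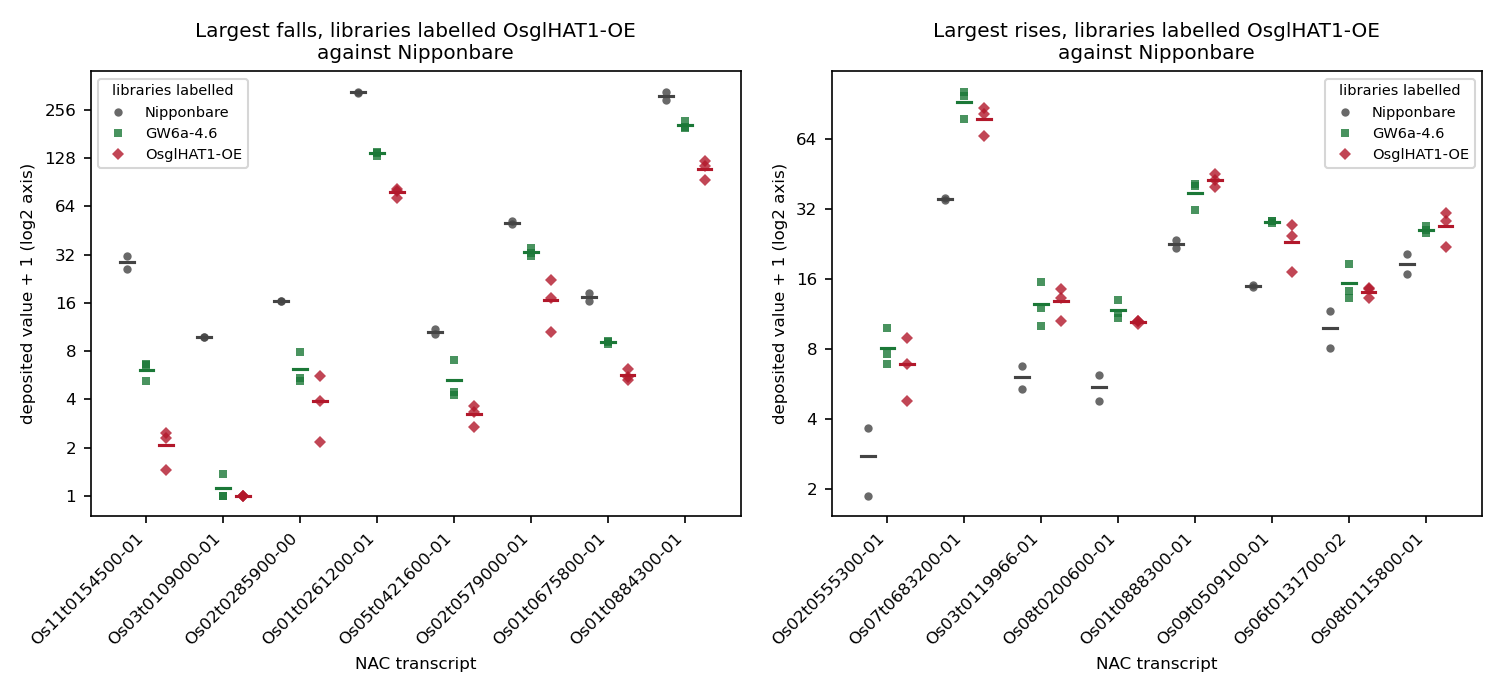
Deposited value + 1 on a log2 axis for the 8 NAC loci with the largest falls (left) and the 8 with the largest rises (right) in OsglHAT1-OE against Nipponbare. Points are libraries by label and bars are group means (n = 2, 3 and 3). On the left Os11t0154500-01 steps down from a mean of 27.6 to 5.12 and 1.07, whereas on the right the lines lie at similar levels above Nipponbare.

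The largest rises were smaller than the largest falls. Os02t0555300-01, a NAM-domain protein, was at 0.878 and 2.69 in Nipponbare, at 6.60, 5.93 and 8.87 in GW6a-4.6, and at 3.82, 7.96 and 5.90 in OsglHAT1-OE. Both lines lay above Nipponbare in every library and overlapped each other, with rises of 4.002-fold (log2 1.61, SE 0.31, limma adjusted p = 3.59e-05) and 3.30-fold (log2 1.34, SE 0.31, limma adjusted p = 0.000329). The call in OsglHAT1-OE was lost without Nipponbare replicate 1 (log2 0.86). Os07t0683200-01 was at 34.8 and 34.0, then 96.4, 76.6 and 101, then 85.4, 81.0 and 64.7. It rose 2.66-fold (log2 1.37, SE 0.13, limma adjusted p = 3.06e-11) and 2.24-fold (log2 1.13, SE 0.13, limma adjusted p = 2.41e-09), and the lines overlapped at this locus too, although OsglHAT1-OE was called lower than GW6a-4.6 without GW6a-4.6 replicate 2 (log2 -0.36).

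Os03t0119966-01, annotated as the NAC protein known in rice as RIM1, a host factor for rice dwarf virus and a regulator of jasmonate signalling, was at 4.39 and 5.76 in Nipponbare. It was at 11.1, 14.5 and 9.05 in GW6a-4.6 and at 12.3, 13.6 and 9.58 in OsglHAT1-OE, rises of 2.28-fold and 2.33-fold (limma adjusted p = 0.000528 and 0.000272). Os01t0888300-01, annotated as similar to NAC-domain containing protein 18, was at 22.5 and 20.7, then 39.98, 30.6 and 39.1, then 44.3, 38.7 and 41.7, rises of 1.69-fold and 1.92-fold (limma adjusted p = 0.00015 and 3.68e-06). At both loci the lines lay above Nipponbare in every library and overlapped each other. Between the lines Os01t0888300-01 was not called (log2 0.19, limma adjusted p = 0.308). It was called higher in OsglHAT1-OE under the other scalings and in edgeR (log2 0.34 to 0.39). Os09t0509100-01 was at 14.0 and 13.8, then 27.5, 26.8 and 27.5, then 26.3, 23.5 and 16.2, rises of 1.96-fold and 1.58-fold (limma adjusted p = 8.33e-05 and 0.00686). Its call in OsglHAT1-OE was lost without Nipponbare replicate 2 (log2 0.59) or without OsglHAT1-OE replicate 1 (log2 0.46).

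Os08t0535800-02 rose in both lines but more in GW6a-4.6. It was at 44.2 and 49.9 in Nipponbare, at 102.5, 91.0 and 98.2 in GW6a-4.6, and at 70.2, 65.7 and 57.6 in OsglHAT1-OE. The 3 groups did not overlap, with OsglHAT1-OE between the others. The rises were 2.07-fold (log2 1.03, SE 0.12, limma adjusted p = 3.51e-09) and 1.37-fold (log2 0.45, SE 0.12, limma adjusted p = 0.00196), and OsglHAT1-OE was 1.51-fold below GW6a-4.6 (log2 -0.59, SE 0.11, limma adjusted p = 3.84e-05). The rise in OsglHAT1-OE lost its call without Nipponbare replicate 1 (log2 0.36). Os01t0339500-01 was at 1.46 and 0 in Nipponbare, at 2.32, 2.68 and 1.63 in GW6a-4.6 and at 0.587, 1.17 and 0.442 in OsglHAT1-OE. Its rise in GW6a-4.6 (log2 1.02, limma adjusted p = 0.0201) and its lower level in OsglHAT1-OE than in GW6a-4.6 (log2 -0.90, limma adjusted p = 0.031) were both lost in edgeR, in DESeq2, under quantile normalization and without GW6a-4.6 replicate 2. The former was also lost without Nipponbare replicate 2, and the latter without replicate 1 of GW6a-4.6 or replicate 1 or 3 of OsglHAT1-OE.

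Among NAC genes known for stress responses and senescence, most were called lower in OsglHAT1-OE, against Nipponbare and against GW6a-4.6. The list holds 10 loci, of which 7 are members by annotation, and all 10 were tested. In OsglHAT1-OE against Nipponbare 7 were called lower, beside 29.7% of all loci, and none higher, with a median log2 change of -1.20 against -0.08 for all loci. In GW6a-4.6 against Nipponbare 2 of the 10 were called lower, a share near the 19.5% of all loci, and none higher, with a median of -0.35 against 0.07. Between the lines 6 were called lower and 1 higher in OsglHAT1-OE, beside 24.7% and 7.69% of all loci, with a median of -0.73 against -0.13. Their summed value was 572.4 and 620.5 in Nipponbare, 431.0 to 489.8 in GW6a-4.6 and 218.9 to 263.7 in OsglHAT1-OE.

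OsNAC6, also called SNAC2, which raises tolerance of drought, salt and cold, was at 333 and 295 in Nipponbare, at 218, 200.3 and 198 in GW6a-4.6, and at 121, 114 and 92.6 in OsglHAT1-OE. The groups formed 3 separate steps. The falls were 1.53-fold (log2 -0.61, SE 0.10, limma adjusted p = 4.33e-06) and 2.88-fold (log2 -1.52, SE 0.10, limma adjusted p = 1.4e-15), with 1.88-fold between the lines (log2 -0.91, SE 0.09, limma adjusted p = 2.22e-10). OsNAP (Os03t0327800-01), which promotes leaf senescence and chlorophyll breakdown in rice, showed the same steps at 38.2 and 39.4, then 28.2, 23.9 and 23.2, then 17.9, 18.1 and 14.7. Its log2 changes were -0.61 (SE 0.17, limma adjusted p = 0.00281), -1.16 (SE 0.17, limma adjusted p = 3.17e-07) and, between the lines, -0.54 (SE 0.15, limma adjusted p = 0.0049). Under quantile normalization the difference between the lines was no longer called (log2 -0.28).

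The genes OsNAC5, OsNAC4, SNAC1 and OsNAC3 shared another pattern, in which Nipponbare and GW6a-4.6 overlapped and OsglHAT1-OE lay below both. OsNAC5 (Os11t0184900-02), an abscisic-acid-inducible factor of salt and drought tolerance, was at 33.9 and 35.9 in Nipponbare, at 41.4, 38.8 and 34.8 in GW6a-4.6, and at 11.7, 13.6 and 14.6 in OsglHAT1-OE. OsglHAT1-OE was 2.63-fold below Nipponbare (log2 -1.33, SE 0.16, limma adjusted p = 1.05e-08) and 2.88-fold below GW6a-4.6 (log2 -1.46, SE 0.15, limma adjusted p = 2.97e-10). OsNAC4 (Os01t0816100-01), known for hypersensitive cell death, was at 62.5 and 54.9, then 56.4, 43.4 and 46.2, then 22.3, 21.0 and 17.1. It fell 2.92-fold against Nipponbare (limma adjusted p = 1.01e-10) and 2.42-fold against GW6a-4.6 (limma adjusted p = 2.64e-09). Its lower level in GW6a-4.6 than in Nipponbare was not called (log2 -0.27, limma adjusted p = 0.145), but was under every other scaling and in edgeR and DESeq2 (log2 -0.33 to -0.35).

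SNAC1 (Os03t0815100-01) and OsNAC3 (Os07t0225300-01) are listed genes but not members. SNAC1, which acts in guard cells and drought tolerance, was at 81.0 and 75.1, then 79.4, 68.4 and 71.7, then 29.2, 36.0 and 33.2, with log2 changes in OsglHAT1-OE of -1.23 against Nipponbare (limma adjusted p = 1.97e-10) and -1.14 against GW6a-4.6 (limma adjusted p = 2.83e-10). OsNAC3 was at 27.1 and 24.8, then 30.4, 24.7 and 28.4, then 11.0, 10.4 and 7.81, with log2 changes of -1.34 (limma adjusted p = 1.75e-07) and -1.43 (limma adjusted p = 1.2e-08). In GW6a-4.6 against Nipponbare neither was called (limma adjusted p = 0.581 and 0.713).

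Of the remaining stress genes, OsNAC10, ONAC131 and ONAC045 lie near the ends of chromosomes 11 and 12. Rice carries a duplicated segment there, and reads may be shared between copies. OsNAC10 (Os11t0126900-01), a drought tolerance factor, was at 19.8 and 22.5 in Nipponbare, at 18.4, 17.0 and 16.3 in GW6a-4.6, and at 19.5, 24.3 and 20.9 in OsglHAT1-OE. ONAC131 (Os12t0123700-00), known for resistance to rice blast, was at 20.5 and 18.1, then 13.6, 12.6 and 14.9, then 21.0, 25.04 and 15.9. At both loci GW6a-4.6 lay below the other groups in every library. For ONAC131 OsglHAT1-OE was called higher than GW6a-4.6 (1.51-fold, log2 0.54, SE 0.18, limma adjusted p = 0.0162), a call lost without replicate 2 of GW6a-4.6 (log2 0.49) or of OsglHAT1-OE (log2 0.40). GW6a-4.6 against Nipponbare missed the threshold for ONAC131 (log2 -0.47, limma adjusted p = 0.0506) and passed it in 8 alternatives, among them every other scaling, edgeR and DESeq2 (log2 -0.47 to -0.58). For OsNAC10 the difference between the lines was not called (log2 0.30, limma adjusted p = 0.15) but passed under the other scalings and in edgeR and DESeq2 (log2 0.45 to 0.57).

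ONAC045 (Os11t0127600-01), a drought and salt tolerance gene, was at 3.66 and 3.84 in Nipponbare, at 3.39, 0.765 and 2.72 in GW6a-4.6, and at 1.47, 0.522 and 1.47 in OsglHAT1-OE. It was called lower in OsglHAT1-OE (log2 -1.18, SE 0.35, limma adjusted p = 0.00487), a call lost without Nipponbare replicate 2 (log2 -1.15). The listed locus Os08t0433500-00, whose annotation does not name a NAC protein, was at 0.878 to 2.69, 0.724 to 1.15 and 0.590 to 2.35 and was not called in any comparison. Os12t0123800-01, the neighbour of ONAC131, was at 4.10 and 1.73, then 3.39, 2.48 and 7.61, then 1.47, 1.30 and 0.737. OsglHAT1-OE was 3.84-fold below GW6a-4.6 at this locus (log2 -1.25, SE 0.31, limma adjusted p = 0.00189). Its lower level in OsglHAT1-OE than in Nipponbare was not called (log2 -0.80, limma adjusted p = 0.0531), but was in several alternatives, among them edgeR.

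**Figure D4:**
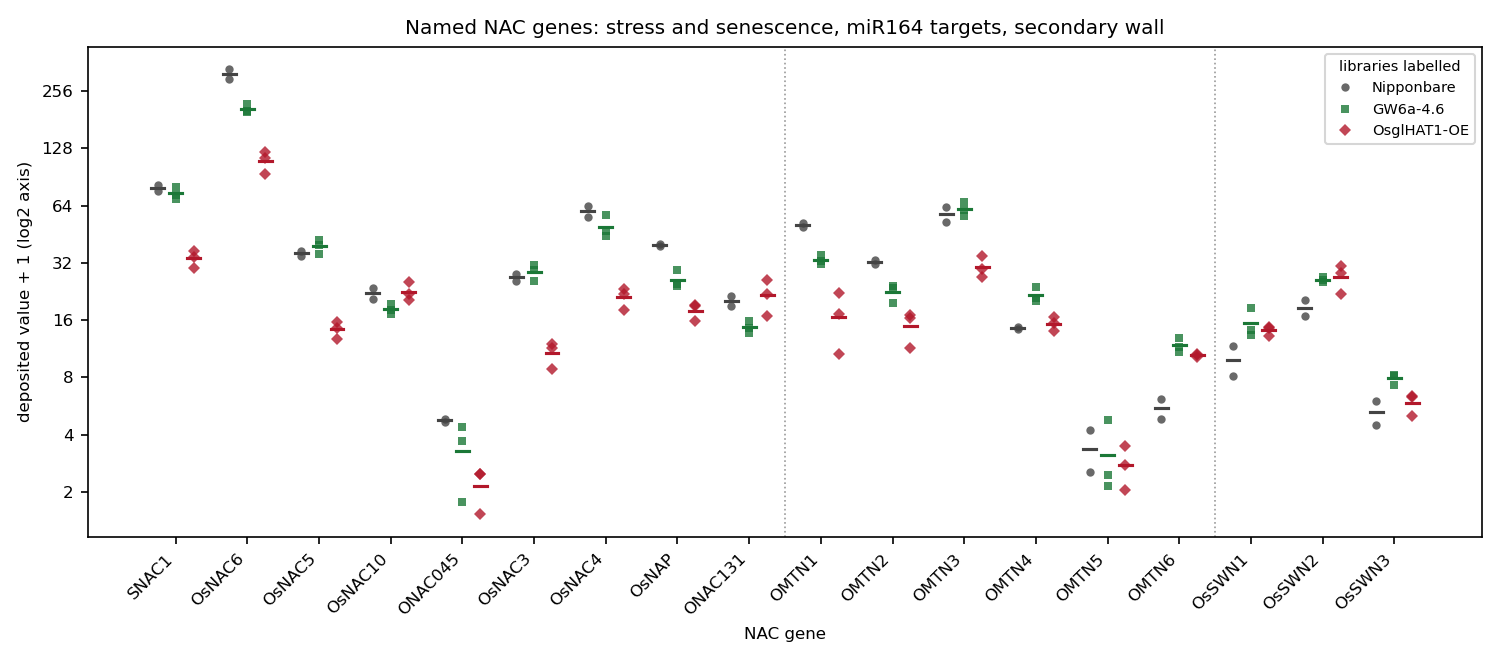
Deposited value + 1 on a log2 axis for 18 listed rice NAC genes in 3 role groups separated by dotted lines (stress and senescence, miR164 targets, secondary wall). Points are libraries by label and bars are group means (n = 2, 3 and 3). At SNAC1, OsNAC5, OsNAC3 and OsNAC4 the OsglHAT1-OE points lie below the other groups, which overlap. OsNAC6, OsNAP, OMTN1 and OMTN2 step down through both lines, and OMTN6 rises in both.

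Genes of pathways linked to these factors were read from 2 lists, and whether the factors act on them here was not tested. In GW6a-4.6 against Nipponbare, SNAC1, OsNAC5, OsNAC4 and OsNAC3 were not called (log2 -0.09, 0.13, -0.27 and 0.09). OsNAC6 and OsNAP were called lower there (log2 -0.61 at each). LEA3 and the dehydrins RAB16A, RAB16B, RAB16C and RAB16D, protective proteins of drought and abscisic acid responses, were all called lower in both lines against Nipponbare, 5 of 5 in each, beside 19.5% of all loci called lower in GW6a-4.6 and 29.7% in OsglHAT1-OE. Their summed value was 1401 and 1282 in Nipponbare, 50.5 to 66.1 in GW6a-4.6 and 20.5 to 29.1 in OsglHAT1-OE. Their median log2 changes were -5.54 and -5.74, against 0.07 and -0.08 for all loci. LEA3 (Os05t0542500-02) was at 172 in both Nipponbare libraries, at 2.14, 3.63 and 2.54 in GW6a-4.6, and at 0.147, 0 and 0.295 in OsglHAT1-OE. Its log2 changes were -5.54 (limma adjusted p = 1.73e-19) and -7.24 (limma adjusted p = 3.57e-23). Between the lines, 3 of the 5 genes were called lower in OsglHAT1-OE and none higher, beside 24.7% and 7.69% of all loci.

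Chlorophyll breakdown enzymes, among which OsNAP has known targets, were also mostly lower. A planned gene of this list, NOL, was left out because of its annotation. Of the 5 genes read, 4 were called lower and 1 higher in each line against Nipponbare. All loci were called so in 19.5% and 26.7% of cases in GW6a-4.6 and in 29.7% and 22.8% in OsglHAT1-OE. Median log2 changes of the 5 genes were -0.50 and -0.63, against 0.07 and -0.08 for all loci. SGR (Os09t0532000-01), the stay-green magnesium dechelatase, was at 73.4 and 71.4, then 22.1, 21.4 and 21.7, then 17.6, 17.7 and 14.0, with log2 changes of -1.69 and -2.08 (limma adjusted p = 3.27e-11 and 9.44e-14). NYC3 (Os06t0354700-01) was at 92.4 and 98.9, then 43.0, 55.4 and 42.2, then 31.9, 31.8 and 29.0. NYC1 (Os01t0227100-01), a chlorophyll b reductase, was the gene called higher, at 47.8 and 52.4, then 59.1, 63.5 and 66.5, then 75.4, 72.9 and 64.3. The 7 leaf photosynthesis markers moved in both directions against Nipponbare. In GW6a-4.6 2 were called higher and 4 lower, beside 26.7% and 19.5% of all loci. In OsglHAT1-OE 3 were called higher and 2 lower, beside 22.8% and 29.7%. The largest changes were falls of the RuBisCO small subunit transcripts Os12t0292400-01 (log2 -2.31 and -2.24) and Os12t0291100-01 (log2 -0.95 and -1.11). Called rises, all of chlorophyll-binding transcripts, ran from log2 0.27 to 0.68. Between the lines 5 of the 7 markers were called higher in OsglHAT1-OE and none lower, beside 7.69% and 24.7% of all loci. The part of leaf content in the NAC results was not tested.

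The 6 OMTN genes, whose transcripts are cut under the guidance of miR164, did not move as one. OMTN1 and OMTN6 are members and the other 4 were read from the list. In GW6a-4.6 2 were called higher and 2 lower, beside 26.7% and 19.5% of all loci. In OsglHAT1-OE 1 was called higher and 3 lower, beside 22.8% and 29.7%. Between the lines 4 were called lower and none higher, beside 24.7% and 7.69%. With 6 genes, the counts against Nipponbare lie too near these shares to set the list apart. OMTN1 (Os02t0579000-01) was at 48.6 and 51.1 in Nipponbare, at 31.6, 34.4 and 30.4 in GW6a-4.6, and at 21.1, 16.2 and 9.58 in OsglHAT1-OE. It fell 1.55-fold (log2 -0.62, SE 0.19, limma adjusted p = 0.00871) and 3.19-fold (log2 -1.68, SE 0.19, limma adjusted p = 2.7e-09), with the lines also called different (log2 -1.06, limma adjusted p = 7.7e-06). The fall in GW6a-4.6 was not called without either Nipponbare replicate (log2 -0.58 and -0.65).

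OMTN6 (Os08t0200600-01) went the opposite way. It was at 3.80 and 5.19 in Nipponbare, at 11.96, 9.94 and 10.5 in GW6a-4.6, and at 9.54, 9.26 and 9.58 in OsglHAT1-OE, rises of 2.404-fold (log2 1.11, SE 0.24, limma adjusted p = 0.000172) and 2.11-fold (log2 0.94, SE 0.24, limma adjusted p = 0.000993). OMTN2 (Os04t0460600-01) stepped down from 32.2 and 30.7 to 22.7, 23.3 and 18.7 and to 15.4, 16.0 and 10.5, and was called lower in OsglHAT1-OE (log2 -1.14, limma adjusted p = 3.56e-06). Its call in GW6a-4.6 (log2 -0.53, limma adjusted p = 0.0201) was lost without either Nipponbare replicate and without replicate 3 of GW6a-4.6. Its lower level in OsglHAT1-OE than in GW6a-4.6 (log2 -0.61, limma adjusted p = 0.00518) was lost under quantile normalization (log2 -0.34).

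OMTN3 (Os12t0610600-01) was at 61.9 and 51.7 in Nipponbare, at 66.0, 55.6 and 59.8 in GW6a-4.6, and at 33.6, 28.7 and 25.9 in OsglHAT1-OE, so it fell in OsglHAT1-OE (log2 -0.93, limma adjusted p = 6.26e-07) while Nipponbare and GW6a-4.6 overlapped. OMTN4 (Os06t0675600-01) was higher in GW6a-4.6, at 22.9, 19.9 and 19.2, than in Nipponbare, at 13.8 and 13.4 (log2 0.56, limma adjusted p = 0.0143). OsglHAT1-OE held 14.4, 15.7 and 13.0. The rise of OMTN4 in GW6a-4.6 was lost without either Nipponbare replicate or replicate 1 of GW6a-4.6. Its lower level in OsglHAT1-OE than in GW6a-4.6 (log2 -0.50, limma adjusted p = 0.0229) was lost under the other scalings, in edgeR and DESeq2, and without GW6a-4.6 replicate 1 or OsglHAT1-OE replicate 3 (log2 -0.23 to -0.43).

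NAC genes of organ boundaries were at low levels and none was called. OsCUC1, which is the same locus as OMTN5 (Os06t0344900-00), was at 3.22 and 1.54 in Nipponbare, at 3.75, 1.15 and 1.45 in GW6a-4.6, and at 1.76, 2.48 and 1.03 in OsglHAT1-OE. OsCUC3 (Os08t0511200-00) was at 2.63 and 1.92, then 6.07, 3.44 and 4.17, then 4.11, 6.78 and 2.06. GW6a-4.6 lay above Nipponbare at OsCUC3 in every library (log2 0.74, limma adjusted p = 0.0577), and the call was made without GW6a-4.6 replicate 2 (log2 0.89) or without OsglHAT1-OE replicate 3 (log2 0.74). OsglHAT1-OE overlapped Nipponbare (log2 0.61, limma adjusted p = 0.115), and was called higher in edgeR, under quantile normalization or without OsglHAT1-OE replicate 3 (log2 0.75 to 0.99). Among the meristem homeobox genes that act beside boundary factors, OSH1 (Os03t0727000-01) rose from 33.4 and 30.0 to 96.4, 109 and 88.6 in GW6a-4.6 and to 112, 109 and 95.7 in OsglHAT1-OE. Of the 4 homeobox genes, 3 were called higher in each line, beside 26.7% of all loci in GW6a-4.6 and 22.8% in OsglHAT1-OE. OSH6 was called lower in OsglHAT1-OE, as were 29.7% of all loci.

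Of 3 secondary wall NAC genes, master switches of wall thickening in fibres and vessels, 2 were called higher in each line, beside 26.7% of all loci in GW6a-4.6 and 22.8% in OsglHAT1-OE. OsSWN1 (Os06t0131700-02) was at 10.7 and 7.11 in Nipponbare, at 12.3, 13.2 and 17.6 in GW6a-4.6, and at 13.5, 13.7 and 12.2 in OsglHAT1-OE, rises of 1.61-fold and 1.48-fold (limma adjusted p = 0.0159 and 0.0389). OsSWN2 (Os08t0115800-01) was at 19.5 and 15.8, then 24.3, 26.0 and 24.99, then 29.8, 27.4 and 20.9, rises of 1.43-fold and 1.48-fold (limma adjusted p = 0.0199 and 0.0107). OsSWN3 (Os08t0103900-01), listed but no member, was at 3.51 and 4.99, then 7.14, 6.31 and 7.24, then 5.28, 5.35 and 3.98, with no call (limma adjusted p = 0.0618 in GW6a-4.6, which passed without OsglHAT1-OE replicate 3 or with a pseudocount of 4). None of the 3 was called different between the lines. All 4 rises of OsSWN1 and OsSWN2 lost their call without Nipponbare replicate 2 (log2 0.27 to 0.39), and those in OsglHAT1-OE also without its replicate 1 (log2 0.52 and 0.43). The rises in GW6a-4.6 were lost in DESeq2, and that of OsSWN1 without GW6a-4.6 replicate 3 in that line and, in OsglHAT1-OE, without its replicate 2, with no filter and with the highest model of any annotation.

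Of 6 wall genes of the pathway linked to these switches, 1 was called lower and none higher in GW6a-4.6. In OsglHAT1-OE 2 were called higher and 1 lower. All loci were called lower and higher in 19.5% and 26.7% of cases in GW6a-4.6 and in 29.7% and 22.8% in OsglHAT1-OE. With 6 genes, the counts against Nipponbare lie too near these shares to set the list apart. The secondary wall cellulose synthases CESA4 (Os01t0750300-01) and CESA9 (Os09t0422500-01) rose in OsglHAT1-OE against Nipponbare by log2 0.25 and 0.43 (limma adjusted p = 0.0174 and 0.000439). The gene lower in both lines was CAD2 (Os02t0187800-01), the cinnamyl alcohol dehydrogenase of lignin synthesis, at 204 and 177, then 93.7, 70.5 and 90.5, then 55.5, 62.6 and 49.8. Its log2 changes were -1.17 (limma adjusted p = 3.44e-10) and -1.75 (limma adjusted p = 5.1e-15). Between the lines 3 of the 6 wall genes were called higher in OsglHAT1-OE and 1 lower, beside 7.69% and 24.7% of all loci. Those higher were CESA4, CESA7 (Os10t0467800-01) and CESA9 (log2 0.44, 0.27 and 0.55), and CAD2 was lower (log2 -0.59).

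NAC genes known from the developing rice grain were close to undetected in the apex. None of ONAC020 (Os01t0104500-01), ONAC023 (Os02t0214500-01), ONAC026 (Os01t0393100-01), ONAC127 (Os11t0512000-01) and ONAC129 (Os11t0512600-00) reached the filter, and their summed value was 0.293 to 2.06 per library. A value of 0.391 to 0.576 corresponds to 3 reads. ONAC020 reached the highest of these values, 1.47 in OsglHAT1-OE replicate 3 and at most 0.768 elsewhere, and was among the loci just outside the filter. The other locus just outside was Os10t0413900-01, with a second-highest library at 0.522. Just inside were Os11t0127000-01 and Os10t0413700-01, each with a second-highest library at 1.04.

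Some members differed between the lines without a place on the lists. Os03t0133000-01 was at 23.7 and 18.2 in Nipponbare, at 27.8, 23.9 and 27.4 in GW6a-4.6, and at 8.81, 10.4 and 5.60 in OsglHAT1-OE. It was 3.18-fold lower in OsglHAT1-OE than in GW6a-4.6 (log2 -1.59, SE 0.19, limma adjusted p = 1.42e-08), below every other library. Os03t0777000-01, annotated as resembling Arabidopsis ANAC019, was at 9.21 and 9.02, then 11.1, 10.9 and 13.6, then 4.11, 6.78 and 2.51, a fall of 2.65-fold between the lines (log2 -1.30, SE 0.24, limma adjusted p = 4.67e-05). Os06t0530400-01 on chromosome 6, annotated as similar to NAC domain-containing protein 76, was the other member called higher in OsglHAT1-OE than in GW6a-4.6, at 18.4, 17.7 and 15.0 against 10.3, 11.9 and 10.3 (1.57-fold, log2 0.60, SE 0.18, limma adjusted p = 0.00857). Nipponbare held 17.1 and 14.6 at this locus. There, GW6a-4.6 was called lower than Nipponbare (log2 -0.51, limma adjusted p = 0.0367), a call lost without either Nipponbare replicate and without replicate 1 or 3 of GW6a-4.6 (log2 -0.40 to -0.62).

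The transcript that dominates the family's sum, Os05t0426200-02, was at 1024 and 1146 in Nipponbare, at 751, 906 and 807 in GW6a-4.6, and at 424, 427 and 390.5 in OsglHAT1-OE. The groups formed 3 separate steps, with log2 changes of -0.40 (SE 0.08, limma adjusted p = 6.79e-05) and -1.39 (SE 0.08, limma adjusted p = 2.24e-17) and, between the lines, -0.98 (SE 0.07, limma adjusted p = 5.57e-14). Another abundantly read NAM-domain locus, Os02t0822400-01, also singled out after its values were seen, fell to the same level in both lines, from 245 and 261 to 149, 172 and 154.5 and to 146.5, 151 and 141. The falls had log2 changes of -0.68 and -0.79 (limma adjusted p = 1.5e-07 and 4.21e-09), and the lines overlapped (log2 -0.11, limma adjusted p = 0.321). Os10t0359500-01, chosen in the same way, was at 96.0 and 121, then 87.8, 107 and 96.7, then 49.9, 50.9 and 36.3. It was called lower in OsglHAT1-OE against either group (log2 -1.24 and -1.08, limma adjusted p = 4.24e-10 and 2.23e-09), whereas GW6a-4.6 overlapped Nipponbare.

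The 59 loci lay on all 12 chromosomes, with 12 on chromosome 1, 7 each on chromosomes 2 and 3, and 1 on chromosome 4. No member was called in opposite directions in the 2 lines against Nipponbare. Besides Os03t0109000-01, Os12t0135850-00 was kept through GW6a-4.6 alone and Os10t0413700-01 through OsglHAT1-OE alone, so their contrasts are affected by the filter. Os12t0135850-00 was at 0.292 and 0.384 in Nipponbare, at 1.07, 1.15 and 1.09 in GW6a-4.6, from 6 reads in each library, and at 0.293, 0 and 0 in OsglHAT1-OE. Recovered counts at Os12t0135850-00 were even in every library, so a read may have been counted more than once there.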

How the data were processed

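Total RNA libraries, single-end per the labels' protocols, were deposited as 1 table. Per the file headers the deposited table holds RPM, treated here as a signal for each transcript model. Every value was a whole multiple of 1 read's worth within 0.01, and columns sum to 2411271 to 2690367, above what RPM allows, so reads stand at each model they align to. Paralogs and isoforms may therefore share reads, and strand and transcript length are not accounted for. At some loci, among them Os03t0109000-01 and Os10t0359500-01, recovered counts were even in every library. There a read may count more than once in the same model. Bowtie, edgeR and IRGSP-1.0 are named in the submitters' processing notes without version or role.

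The planned test assumed RPM and was kept on the deposited signal. Loci at 1 or more in at least 2 libraries (31487) entered limma 3.58.1 (lmFit, eBayes with trend, R 4.3.3) on log2(value + 1), with all 8 libraries in 1 fit and Benjamini-Hochberg adjustment over all loci of a comparison at 0.05. Folds are ratios of group means of the deposited values, log2 changes come from the model and understate changes of low loci, and a fold against 0 reads uses 3 reads over the group. Intervals cover counting error only and take each recovered count as a separate read. On simulated data limma recovered 98% of rises of 2-fold in OsglHAT1-OE against Nipponbare and 100% in both other comparisons, with 4.81% to 7.41% false calls. Each simulation raised 100 loci by 2-fold and 100 by 4-fold among 30899 to 30931. The raised loci lay well above the filter, and all loci had the same spread setting. Recovery of falls, of low loci and of widespread changes was therefore not measured.

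edgeR 4.0.16 and DESeq2 1.42.0 on recovered reads (100% of values whole), pseudocounts, filters, scalings and left-out libraries were alternatives. Members and lists were chosen with earlier results of these data known. Text names the 8 largest rises and falls of each line and the 5 largest between the lines that were called without overlap, every listed NAC gene, and 2 loci on each side of the filter. No member matched the RefSeq table by identifier, and no sequence is shown.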

Additional observations from a re-analysis of the deposited data

How the results depend on the processing

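Most counts stayed within 1.5 times of the reported ones under other pseudocounts, filters, scalings, tests and model choices. The exceptions were as follows. Requiring a log2 change of at least 1 left 6 loci higher and 5 lower in GW6a-4.6 against Nipponbare, 3 higher in OsglHAT1-OE against Nipponbare, and 0 higher and 9 lower in OsglHAT1-OE against GW6a-4.6, by construction. In OsglHAT1-OE against GW6a-4.6 the higher count was 4 under median-ratio scaling, TMM and quantile normalization and in edgeR, and the lower count was 16 under quantile normalization; the cause was not tested. Leaving out 1 library at a time gave 7 to 13 higher and 10 to 15 lower loci in GW6a-4.6 against Nipponbare, 6 to 10 higher and 24 to 28 lower in OsglHAT1-OE against Nipponbare, and 1 to 2 higher and 20 to 25 lower between the lines, the single higher locus without replicate 2 of GW6a-4.6 or of OsglHAT1-OE. With 1 Nipponbare library left, that library is assumed to vary like the other groups. Libraries with the same replicate number did not deviate together (correlations of -0.00254 to 0.0648), and a replicate block gave 13 higher and 12 lower, 9 and 27, and 2 and 26. Under the block OMTN2, Os07t0566500-01 and Os06t0530400-01 in GW6a-4.6 and OsSWN1 in OsglHAT1-OE were not called, while OsCUC3 was called higher in both lines and Os12t0123800-01 lower in OsglHAT1-OE. Among 2439 values of named loci under alternatives, 2310 kept their side of the threshold, 87 lost a call, 42 gained one and no called change reversed. Loci with few reads are limited by depth, as 3 reads correspond to a value of 0.391 to 0.576. The highest model of any annotation was an alternative chosen after seeing the data.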
